A study of Homo sapiens with 12 samples.

Results

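Histone variants are encoded outside the large histone gene clusters, and for most of them expression is not tied to DNA replication and the mRNA carries a poly(A) tail. *H2AFX* also gives a stem-loop mRNA without such a tail, and *CENPA* mRNA peaks shortly before mitosis. The genes of the clusters, by contrast, are expressed mainly while DNA is replicated, and most of their mRNAs end in a stem-loop. Histone variants replace the cluster-encoded histones at particular places in chromatin: H3.3 and H2A.Z at active and regulatory regions, CENP-A at centromeres, and H2A.X throughout the genome, where its phosphorylated form marks DNA breaks. The 9 genes *H2AFX*, *H2AFZ*, *H2AFV*, *H2AFY*, *H2AFJ*, *H3F3A*, *H3F3B*, *H1FX* and *CENPA* were taken by symbol from the 26364 gene symbols of the deposited tables, since they encode such variants and lie outside the clusters. The choice rests on the symbols and on no threshold in the counts. Total RNA of HCT116 cells, which derive from a human colon carcinoma, was sequenced in 12 libraries, with a single library and thus no replicate for any condition. HCT116 WT cells and the p65-deficient single-cell clone 32 were given CPT, which inhibits TOP1, ICRF193, which inhibits TOP2 (each at 5 µM, given as a pre-treatment of 2 h), or neither, and TNFα was absent (0 h) or added at 20 ng/mL for 1 h. Clone 32 is described as made with CRISPR-Cas9 and a single guide RNA against *RELA*, which encodes p65, whereas its labels read shRNA p65. It is 1 clone, so that loss of p65 and other properties of the clone cannot be told apart.

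WT libraries held 16300210 to 22051046 counted reads and clone 32 libraries 8101212 to 20524958. Of the latter, 4 held fewer than 10000000 reads, namely ICRF193 at 0 h and all libraries at 1 h TNFα. The normalized count of *RELA*, the count divided by the DESeq2 size factor of the library, was 694 to 909 in WT cells and 548 to 673 in clone 32. The 8 epithelial markers sought summed to 3633 to 4516 TPM (reads per exonic length, scaled to the same sum in each library), with *VIL1* near 0 (at most 4 reads). The 9 markers of blood, stromal and endothelial cells summed to 1.71 to 5.00 TPM, with *CD3E* at 0. Of 7 epithelial markers tested, 3 were raised and 1, *CDX2*, was lowered with CPT. *COL1A1*, the only one of the others with enough reads to be tested, was raised. Over all 13993 genes tested, 23.2% were raised and 25.1% lowered. The part of these markers in the results was not tested.

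RefSeq promoters (GRCh38.p14) were matched for 9 of the 9 genes under their current symbols, with 13 start sites in all. Those of *H2AFX*, *CENPA*, *H2AFZ*, *H2AFJ* and *H3F3B* are printed below as the 250 bases before the start site, 5′ to 3′ on the strand of the gene. *H2AFY* and *H1FX*, which also passed the test of CPT given further below, are not printed. Capitals mark CCAAT (or ATTGG, its reverse complement), the core of the CCAAT box, TTTGAA (or TTCAAA), which occurs in promoters of cell cycle genes, and TATAAA (or TTTATA), the core of the TATA box.
H2AX (chr11:119095466-119095715, minus strand): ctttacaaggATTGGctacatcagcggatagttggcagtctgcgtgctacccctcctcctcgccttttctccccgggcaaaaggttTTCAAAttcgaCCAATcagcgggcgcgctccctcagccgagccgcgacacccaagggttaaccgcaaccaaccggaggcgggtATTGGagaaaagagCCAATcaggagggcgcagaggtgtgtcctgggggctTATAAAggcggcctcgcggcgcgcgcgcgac
CENPA (chr2:26785806-26786055, plus strand): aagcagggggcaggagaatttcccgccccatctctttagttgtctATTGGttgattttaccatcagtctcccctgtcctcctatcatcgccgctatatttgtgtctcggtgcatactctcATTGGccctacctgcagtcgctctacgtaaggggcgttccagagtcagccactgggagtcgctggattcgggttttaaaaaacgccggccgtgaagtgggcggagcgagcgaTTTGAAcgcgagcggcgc
H2AZ1 (chr4:99950276-99950525, minus strand): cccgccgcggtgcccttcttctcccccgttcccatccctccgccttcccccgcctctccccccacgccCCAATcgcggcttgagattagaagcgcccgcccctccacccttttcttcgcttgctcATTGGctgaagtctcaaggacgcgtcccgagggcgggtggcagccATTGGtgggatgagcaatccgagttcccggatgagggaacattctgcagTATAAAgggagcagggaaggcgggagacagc
H2AJ (chr12:14774155-14774404, plus strand): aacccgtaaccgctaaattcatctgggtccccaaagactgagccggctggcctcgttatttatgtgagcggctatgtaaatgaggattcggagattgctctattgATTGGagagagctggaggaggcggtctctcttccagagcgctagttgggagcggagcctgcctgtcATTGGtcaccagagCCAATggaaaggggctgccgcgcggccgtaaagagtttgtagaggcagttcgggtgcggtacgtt
H3-3B (chr17:75779780-75780029, minus strand): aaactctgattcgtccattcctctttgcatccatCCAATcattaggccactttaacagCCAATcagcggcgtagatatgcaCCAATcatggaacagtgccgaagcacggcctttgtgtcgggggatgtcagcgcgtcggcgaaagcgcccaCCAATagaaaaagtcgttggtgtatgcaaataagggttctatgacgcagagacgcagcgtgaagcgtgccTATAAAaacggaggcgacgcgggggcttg
CCAAT was present at least 3 times before the start site of 5 of the 9 matched genes and 4 times before that of 3, *H2AFX*, *H2AFV* and *H3F3B*. Of 35116 promoters of the same length, 32.01% held it at least once, 2.927% at least 3 times and 0.8742% at least 4 times. No CCAAT was found before the start of *H1FX*, and 0 and 2 were found before the start sites of *H2AFY*. TTTGAA was found in 2 of the 9, *H2AFX* and *CENPA*, and TATAAA in 4 of the 9. Over all promoters the shares were 13.32% and 10.72%. These shares, and those of CCAAT, count promoters, whereas the 9 genes have 13 start sites. Of these 13, 5 held CCAAT at least 3 times and 3 held it 4 times, while 2 held TTTGAA and 4 held TATAAA. The motifs were chosen with the values of the genes known, and none of these matches shows that a factor binds there.

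The level of each variant was compared on the TPM scale, which divides reads by exonic length. *H2AFZ*, encoding the main H2A.Z isoform, had the highest level, with 749 TPM in the lowest library, a median of 816 and 945 in the highest. *H3F3B*, one of the genes for H3.3, followed with 485, 534 and 646 TPM, and *H2AFX* with 321, 399 and 446 TPM. *H2AFY*, which encodes the macrodomain-bearing macroH2A1, had a median of 205 TPM. *H1FX*, which encodes a linker histone, had a median of 88.7 TPM. *H2AFV*, encoding the second H2A.Z isoform, had a median of 41.5 TPM and *CENPA* one of 37.3 TPM. *H2AFJ*, which encodes H2A.J, was lowest with 3.89 TPM in the lowest library, a median of 5.22 and 14.6 in the highest. The order was thus stable over the conditions: the ranges of neighbouring genes overlapped only for *H2AFV* and *CENPA*. Even there, *H2AFV* exceeded *CENPA* in 11 of 12.

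**Figure D1:**
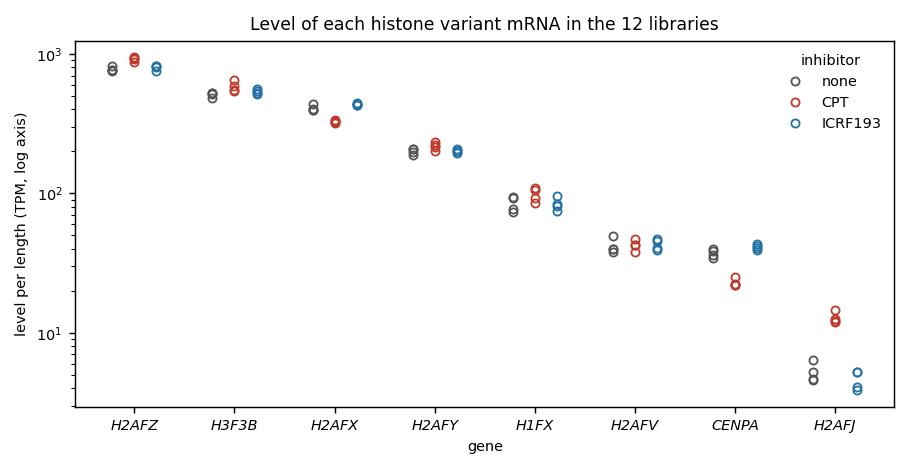
Level per length of 8 histone variant genes in each of the 12 libraries, in TPM on a log axis, with 1 circle per library coloured by inhibitor. Medians run from 816 TPM for *H2AFZ* to 5.22 TPM for *H2AFJ*. The CPT libraries of *H2AFZ*, *H2AFX*, *CENPA* and *H2AFJ* do not overlap the other 8.

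*H3F3A*, the other gene for H3.3, was listed at 0 reads in all 12 libraries. It lies on chromosome 1 of hg19 (226250408 to 226259703, plus strand), and 1042 of its 1062 exonic bases (98.12%) are also annotated as exons of *H3F3AP4* on the same strand, likewise at 0. The counting command gave no option to count a read that falls on more than one gene, so that only 20 bases of *H3F3A* lie outside the shared exons. The 0 is therefore no measure of *H3F3A* mRNA, and no value of this gene or of its ratio to *H3F3B* is given. Reads that map to several places, such as those shared with processed pseudogenes, were not counted either, which makes the levels of *H2AFZ* and *H3F3B* uncertain. *H2AFY* shares 175 of its 2154 exonic bases with *C5orf66* on the opposite strand, which had 25 to 113 reads, and *H1FX* shares 7 of 1507 with *H1FX-AS1*, which had 5 to 18. Counting was done without strand, so that a read on these shared bases fell on both genes and was not counted for either.

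To determine how TOP1 inhibition affected the variants, CPT was compared with no inhibitor in 4 matched pairs of libraries (WT and clone 32, each at 0 h and 1 h TNFα) with the quasi-likelihood test of edgeR, blocked by pair, and Benjamini-Hochberg adjustment over all genes. *H2AFJ* rose about 2.49-fold, *CENPA* fell to 0.641 times and *H2AFX* to 0.830 times the level without inhibitor, and 4 further variants rose by 1.13-fold to 1.23-fold. Of the 8 genes tested, 7 passed an adjusted p of 0.05, with 5 raised and 2 lowered, while *H2AFV* did not pass. Over all 13993 genes tested 48.3% passed, 23.2% raised and 25.1% lowered, so that a call by itself does not set a variant apart. Their median log2 fold change was 0.21, against 0.02 over all genes tested. The pairs differ in cell line and TNFα and stand in for replicates. The p-values rest on the spread between these pairs, which the test draws towards that of other genes. They thus do not measure the spread of a variant alone. For *H2AFJ* the SD of the log2 ratios of the 4 single pairs was 0.32. Libraries came from whole cultures, in which fewer cells with an mRNA and less of it per cell cannot be told apart. Counts were scaled between libraries, so that a change in mRNA amount common to most genes would not be seen. The rises and falls given here are thus relative to the other genes.

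*H2AFJ* lies on chromosome 12 of hg19 (14927270 to 14930936, plus strand) in a single exon. Its normalized count without inhibitor was 197 and 160.7 in WT cells (0 h and 1 h TNFα) and 140.3 and 131 in clone 32. With CPT it was 387 in both WT libraries, and 385 and 438 in clone 32. All CPT libraries thus exceeded every other library, including those with ICRF193 (107 to 160.5). The log2 fold change was 1.32 ± 0.11 (SE, adjusted p 3.6e-06 with edgeR), which placed *H2AFJ* at the 96.4th percentile of all genes tested. In the single pairs the log2 ratio was 0.98 and 1.27 in WT cells, and 1.46 and 1.74 in clone 32. The difference between the cell lines was 0.43 ± 0.16 and did not pass the test of the CPT by cell line interaction (edgeR, adjusted p 0.157).

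*CENPA*, encoding the H3 variant that marks centromeres, lies on chromosome 2 of hg19 (27008882 to 27017455, plus strand) with 5 merged exons. Without inhibitor its normalized count was 409.6 and 430.2 in WT cells and 472 and 421 in clone 32. With CPT it was 302 and 273 in WT cells and 279 and 258 in clone 32, below every library without inhibitor or with ICRF193. It fell in 4 of 4 pairs, by 0.64 ± 0.08 on the log2 scale (edgeR, adjusted p 8.7e-05), at the 10.2th percentile of all genes tested. Between 148 and 673 reads per library stand behind these values.

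*H2AFX* lies on chromosome 11 of hg19 (118964585 to 118966177, minus strand) in a single exon. Its normalized count without inhibitor was 5329 and 5355 in WT cells and 5783 and 4814 in clone 32. In the presence of CPT the counts were 4333 and 4462, and 4598 and 4346, again below all other libraries. The decrease was smaller than for *CENPA*: *H2AFX* fell by 0.27 ± 0.04 on the log2 scale (edgeR, adjusted p 0.00032). At the 24.2th percentile, it lay well within the range of all genes tested.

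**Figure D2:**
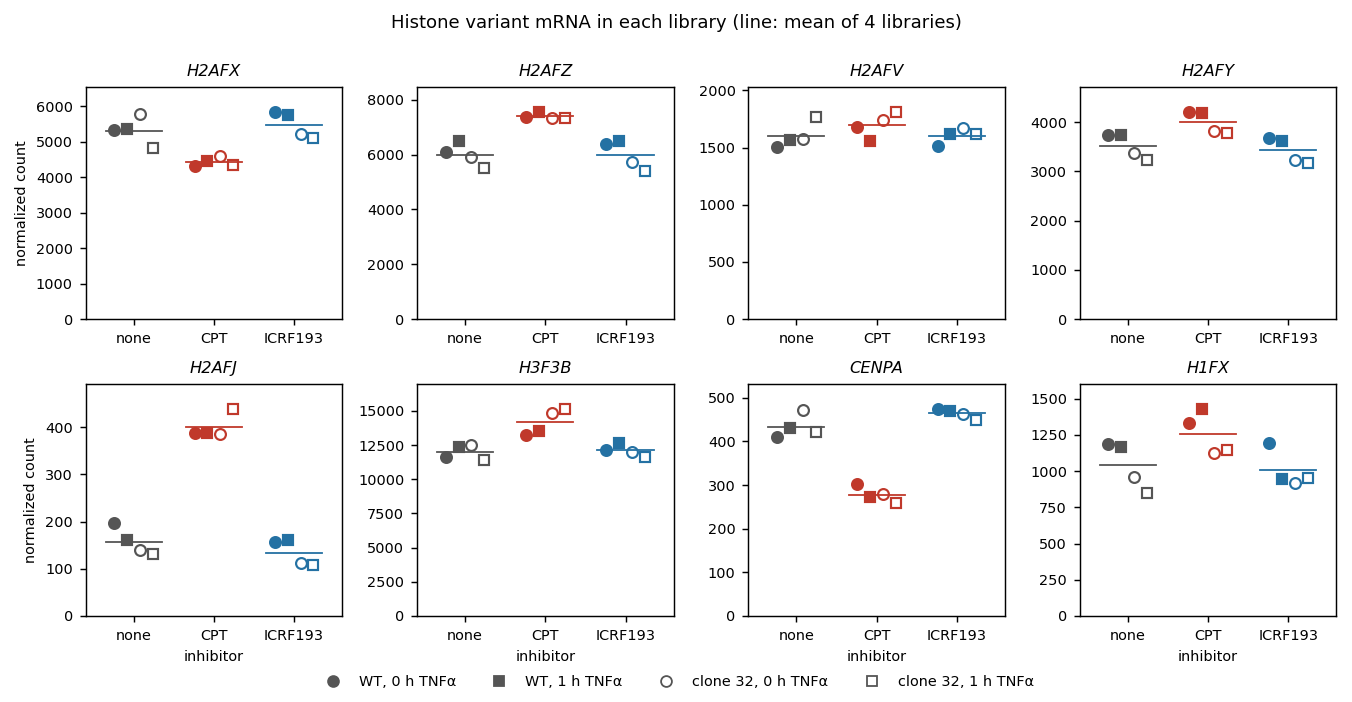
Normalized counts of 8 histone variant genes in each of the 12 libraries (filled symbols, WT cells; open symbols, clone 32; circles, 0 h and squares, 1 h TNFα), with lines at the mean of the 4 libraries per inhibitor and axes starting at 0. With CPT, *H2AFJ* reached 385 to 438 and *CENPA* 258 to 302, outside the range of the other 8 libraries. The CPT libraries of *H2AFX*, *H2AFZ*, *H2AFY* and *H3F3B* do not overlap the other 8 either.

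Among the H2A variants, *H2AFZ* had 5494 to 6498 normalized counts without inhibitor and 7323 to 7546 with CPT, without overlap. It rose by a log2 fold change of 0.30 ± 0.04 (edgeR, adjusted p 0.00018). *H2AFY* had 3236 to 3739 normalized counts without inhibitor and 3774 to 4205 with CPT, and rose by 0.18 ± 0.04 (adjusted p 0.003). *H2AFV*, which encodes a protein closely related to that of *H2AFZ*, had 1502 to 1769 counts without inhibitor and 1556 to 1811 with CPT. The groups overlapped, and its log2 fold change of 0.08 ± 0.05 did not pass the test (adjusted p 0.215). The log2 ratio of *H2AFZ* to *H2AFV*, which does not depend on the scaling between libraries, was 4.22 ± 0.19 (SD, n = 4) per exonic length without inhibitor and 4.44 ± 0.11 with CPT. It was higher in 4 of 4 pairs, by 0.22 on average. An exact two-sided sign-flip permutation test found 2 of 16 sign assignments as extreme, the smallest p that 4 pairs allow. After adjustment over 4 such tests, which include those with ICRF193, the p of this permutation test was 0.5.

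*H3F3B*, a gene of chromosome 17 of hg19 (73772515 to 73776016, minus strand), had 11371 to 12519 normalized counts without inhibitor and 13197 to 15133 with CPT. Its log2 fold change was 0.24 ± 0.05 (edgeR, adjusted p 0.0029), with single-pair ratios from 0.13 to 0.41. The highest ratio came from the shallow pair of clone 32 at 1 h TNFα, and without that pair the change was 0.17 and did not pass (adjusted p 0.0615). The linker histone gene *H1FX* rose by 0.27 ± 0.06 (adjusted p 0.0023), from 846 to 1191 counts without inhibitor to 1128 to 1429 with CPT. Its groups overlapped, and without the pair block it did not pass (adjusted p 0.0912). In normalized counts, 6 of the 8 genes had CPT libraries that did not overlap the other 8 libraries, 2 below and 4 above. Such separation held for 31.7% of all genes tested, and it was looked at after the values were seen. It depended on the scaling for *H2AFY* and *H3F3B*, which overlapped in TPM. Their lowest CPT library had 203 and 544 TPM, against up to 208 and 558 TPM in the other 8.

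ICRF193 inhibits TOP2, and its comparison with no inhibitor used the same 4 libraries without inhibitor as that of CPT, 2 of which had TNFα. None of the 8 genes tested passed (edgeR, and 0 with DESeq2), while 2.17% of 13631 genes did. An unadjusted p under 0.05 was found for 1573 of the 13631 genes, and for 1 of the 8. That gene was *H2AFJ*, with 107 to 160.5 normalized counts against 131 to 197 without inhibitor and a log2 fold change of -0.21 ± 0.09 (edgeR, adjusted p 0.307). *CENPA* had 448 to 474 counts with ICRF193 and a log2 fold change of 0.11 ± 0.06 (adjusted p 0.443), and the other 6 genes lay between -0.07 and 0.05. Among the single pairs, *H2AFX* was 0.13 and 0.10 higher with ICRF193 in WT cells, and 0.09 higher in clone 32 at 1 h. Both libraries of that clone 32 pair are shallow. It was 0.15 lower in clone 32 at 0 h, whose ICRF193 library is shallow. Without the pair of clone 32 at 0 h the log2 fold change of *H2AFX* was 0.11 and passed (edgeR, adjusted p 0.0147). Without all shallow libraries only the 2 WT pairs remained, and it was 0.12 and passed (adjusted p 0.0499). Of the 296 genes called over the whole table, 27.03% were raised, and 38.02% of 263 after scaling by total count.

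**Figure D3:**
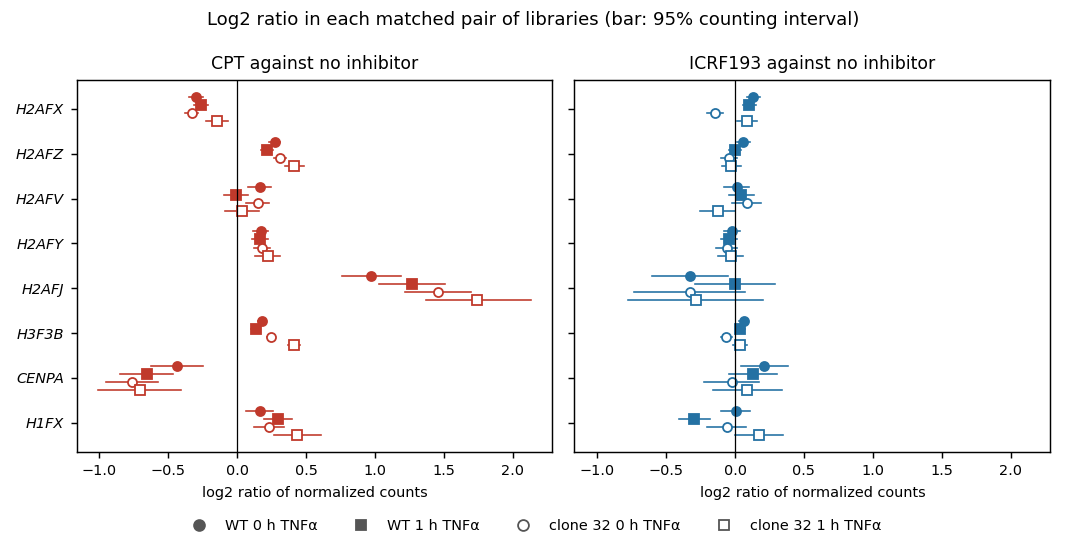
Log2 ratio of normalized counts of 8 histone variant genes with CPT (left) or ICRF193 (right) against no inhibitor in the 4 matched pairs of libraries; bars are exact Clopper-Pearson 95% intervals and cover counting error only. With CPT, *H2AFJ* ratios run from 0.98 to 1.74 and *CENPA* ratios from -0.76 to -0.44, whereas with ICRF193 those of *H2AFJ* run from -0.32 to -0.0019 and those of *CENPA* from -0.03 to 0.21.

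When both inhibitors were compared directly, 7 of the 8 genes passed with CPT against ICRF193, as did 46.4% of 13900 genes. *H2AFJ* was higher with CPT by a log2 fold change of 1.52 ± 0.12 (edgeR, adjusted p 4.7e-07). *CENPA* and *H2AFX* were lower, with log2 fold changes of -0.76 ± 0.08 (adjusted p 4.1e-06) and -0.33 ± 0.05 (adjusted p 0.00031). *H2AFZ*, *H2AFY*, *H3F3B* and *H1FX* were higher by 0.20 to 0.31, and *H2AFV* did not pass (0.06 ± 0.06, adjusted p 0.414). *H3F3B* did not pass without the pair of clone 32 at 1 h TNFα (0.15, adjusted p 0.101), or without all shallow libraries (0.08, adjusted p 0.159).

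The share of the variants among the counted reads of their histone family was then determined, with the cluster genes recognised by symbol. Reads that map to several places were not counted. *H3F3A* was listed at 0, so that the H3 shares leave out its mRNA. Of the H2A reads without inhibitor, 20.4% to 23.0% came from the 5 H2A variants, compared to 74.2% to 80.0% with CPT and 21.7% to 23.1% with ICRF193. *H3F3B* contributed 21.7% to 25.1% of the H3 reads without inhibitor and 82.8% to 86.8% with CPT. Most of this difference was in the cluster genes. The summed normalized count of the H2A cluster genes was 58111 ± 4369 (SD, n = 4) without inhibitor and 4227 ± 666 with CPT, whereas that of the H2A variants was 16601 ± 807 and 17923 ± 187. For H3, the cluster genes went from 38984 ± 4046 to 2426 ± 466 and *H3F3B* from 11972 ± 551 to 14180 ± 948. Total RNA was sequenced, so that cluster mRNAs without a poly(A) tail were captured. Per gene, 46 of 47 cluster genes tested were lowered with CPT, compared to 25.1% of all genes (median log2 fold change -3.74). The exception was *HIST2H2BC*, named after its values were seen, with 0 to 11 reads per library. Per exonic length the shares were lower throughout, with means of 8.87% and 58.4% for H2A and 5.13% and 50.7% for H3 without inhibitor and with CPT.

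**Figure D4:**
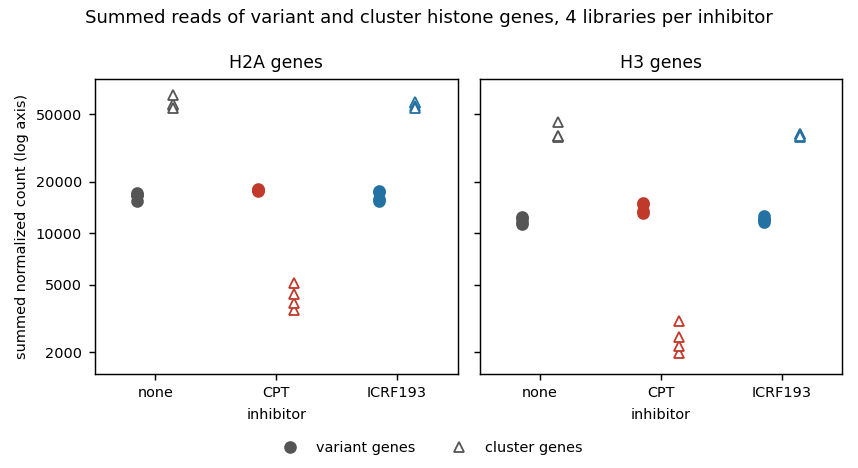
Summed normalized counts of the variant genes (circles) and of the cluster genes (triangles) of the H2A and H3 families on a log axis, with 1 symbol per library. With CPT the H2A cluster genes summed to 3555 to 5080, below the 17694 to 18142 of the H2A variants, whereas without inhibitor the cluster genes were above the variants.

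TNFα was compared over the WT libraries, in which 1 h and 0 h form 3 pairs. None of the 8 genes tested passed (edgeR, and 0 with DESeq2), against 0.642% of 13707 genes. At an unadjusted p under 0.05 there were 0 of the 8, and 595 of the 13707 genes. The log2 fold changes ranged from -0.08 ± 0.09 for *H2AFJ* to 0.06 ± 0.03 for *H3F3B*. *H1FX* had -0.08 ± 0.06. Without the CPT pair only those without inhibitor and with ICRF193 remained, and it was -0.17 and passed (edgeR, adjusted p 0.0374). Its single-pair log2 ratios were -0.03 without inhibitor, -0.33 with ICRF193 and 0.10 with CPT. The effect of CPT did not differ between 1 h and 0 h TNFα for any of the 8 at this threshold (edgeR, 0 calls, 0 with DESeq2, 0 at an unadjusted p under 0.05), and only 1 of 13993 genes (0.00715%) passed that test. The largest difference was 0.26 ± 0.24, for *H2AFJ*. Since TNFα followed the inhibitor, cells at 1 h may have had the inhibitor longer than those at 0 h, and TNFα and the time with the inhibitor cannot be told apart in this test.

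Clone 32 was compared with WT cells over all 6 matched pairs. *H1FX* was lower in clone 32, with 846 to 1144 normalized counts against 949 to 1429 in WT cells and a log2 fold change of -0.27 ± 0.05 (edgeR, adjusted p 0.0019), and lower in 5 of 6 pairs. *H2AFY* was lower in 6 of 6 pairs, with -0.16 ± 0.03 (adjusted p 0.0019), and *H2AFZ* was lower by -0.12 ± 0.04 (adjusted p 0.0357). *H2AFV* was higher, with 0.12 ± 0.04 (adjusted p 0.0381). These 4 of 8 compare with 32.1% of 13730 genes, of which 15.2% were raised and 16.9% lowered; of the calls 47.46% were raised, and 57.48% after scaling by total count. The calls rest on libraries of unequal depth, since 4 of the 6 clone 32 libraries were shallow. Without those and their WT partners, 2 pairs remained and none of the 8 genes passed (*H1FX*, -0.27, adjusted p 0.193), and none passed without the pair block (adjusted p 0.0815 for *H1FX*). Of the 6 fits that left out 1 pair, 4 called only *H2AFY* and *H1FX*, namely those without the pairs of no inhibitor or ICRF193 at 0 h or 1 h TNFα. The CPT effect itself differed between clone 32 and WT cells for none of the 8 (edgeR, 0 with DESeq2), against 4.51% of 13993 genes. At an unadjusted p under 0.05 there was 1 of the 8, *H2AFJ*, and 2769 of the 13993 genes.

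The variants act with dedicated partners, and 4 lists of those were examined with CPT. Of 37 chaperones and remodellers, which place or remove variants, 17 were raised and 12 lowered, with a median log2 fold change of 0.00. Over all 13993 genes tested, 23.2% were raised and 25.1% lowered, with a median of 0.02. *HJURP*, the chaperone of CENP-A, fell by 1.17 ± 0.06 on the log2 scale (edgeR, adjusted p 4.2e-08), and *INO80*, the ATPase of a remodelling complex, fell by 0.79 ± 0.06 (adjusted p 1.4e-06). *DMAP1* and *ZNHIT1*, subunits of the complexes that exchange H2A for H2A.Z, rose by 0.36 ± 0.10 (adjusted p 0.0102) and 0.28 ± 0.07 (adjusted p 0.0093).

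Of 18 genes tested for kinases, readers and phosphatases of H2A.X, 2 were raised and 8 lowered, where 23.2% and 25.1% of all genes were (median -0.13, against 0.02). *RNF168*, a ubiquitin ligase acting at DNA breaks, fell by 1.09 ± 0.06 and *PPM1D*, a phosphatase of phosphorylated H2A.X, by 0.73 ± 0.06 on the log2 scale (edgeR, adjusted p 1.8e-07 and 1.5e-06). The 2 raised were *PPP4C*, a phosphatase subunit (0.24 ± 0.05, adjusted p 0.0018), and *PRKDC*, the DNA-dependent protein kinase (0.20 ± 0.05, adjusted p 0.0102).

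Of 21 centromere proteins beside *CENPA*, 1 was raised, 6 were lowered and 14 did not pass, with 25.1% of all genes lowered (median 0.02, as over all genes). *CENPL* and *CENPC*, which encode parts of the complex that assembles on CENP-A nucleosomes, fell, with log2 fold changes of -1.32 ± 0.09 and -1.09 ± 0.09 (edgeR, adjusted p 7.6e-07 and 3.6e-06), and *STRA13*, encoding CENP-X, rose by 0.22 ± 0.05 (adjusted p 0.0032). Of 13 factors for the mRNA of the cluster genes, 1 was raised and 7 were lowered, against 23.2% and 25.1% of all genes (median -0.17, against 0.02). They include *NPAT*, a coactivator of cluster transcription, which fell by 1.21 ± 0.08 (adjusted p 4.7e-07), and *ZNF473*, a processing factor, which fell by 1.31 ± 0.15 (adjusted p 3.4e-05). *NCBP1*, a subunit of the cap-binding complex, rose by 0.13 ± 0.04 (adjusted p 0.0254). With ICRF193, against the same libraries without inhibitor, 1 gene of each of the first 3 lists passed, where 2.17% of all 13631 genes did. All were raised, namely *HJURP* (0.15 ± 0.03, edgeR, adjusted p 0.0049), *PPM1D* (0.17 ± 0.04, adjusted p 0.0147) and *CENPC* (0.19 ± 0.05, adjusted p 0.0398).

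**Figure D5:**
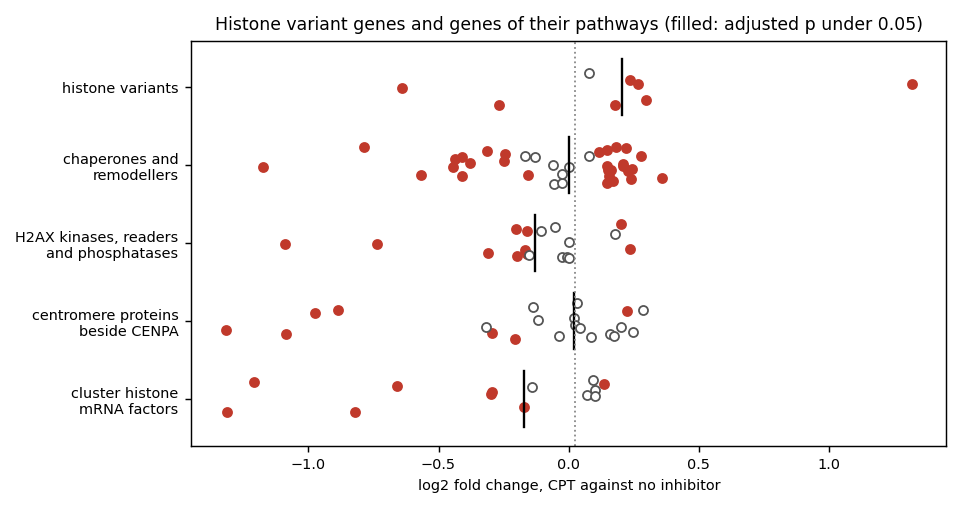
Log2 fold change with CPT against no inhibitor of the histone variant genes and of 4 lists of their partners, with 1 circle per gene, filled where the adjusted p was under 0.05. Black lines are list medians (0.21 for the variants and -0.17 for the factors of cluster histone mRNA), and the dotted line is the median of 0.02 over all genes tested.

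Of 10 other variant genes outside the clusters, only *H2AFY2*, encoding macroH2A2, and *H3F3C* had enough reads to be tested. *H2AFY2* had 46.7 to 62.4 TPM and rose by 0.17 ± 0.06 with CPT (edgeR, adjusted p 0.0302), and *H3F3C* had at most 25 reads in a library. Of the others, 5 had no read and 3, *H1FNT*, *H1FOO* and *HILS1*, had at most 4.

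For each variant, the 2 genes with the most similar profile over the 12 libraries were sought among 10124 genes with a mean normalized count of at least 100, by the root-mean-square difference of centred log2 counts. These were *CABLES2* (0.18) and *HBEGF* (0.23) for *H2AFJ*, whose own deviation from its mean was 0.73. For *CENPA* (0.34) they were *S1PR2* and *PEX13* (0.07 each), and for *H2AFX* (0.15) *PGS1* and *CANT1* (0.06 each). *H2AFZ* was closest to *GNAS*, *H2AFY* to *ATP5A1* and *ODC1*, and *H3F3B* to *C1QBP* and *CAP1*, all at 0.03. *H2AFV* was closest to *UBE2E1* and *ENTPD4* (0.04 each) and *H1FX* to *ABHD14B* and *UBE2L6* (0.08 each).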

How the data were processed

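Total RNA of 12 HCT116 cultures was sequenced with a stranded total RNA kit, 1 library per condition. The authors trimmed the reads with Trimmomatic, and per the file headers they counted reads on exons of the UCSC hg19 annotation with featureCounts 1.5.0, without options for strand, multi-overlapping or multi-mapping reads. STAR and deepTools are named in the submitters' processing notes. The deposited values are raw counts for 26364 gene symbols. The genes, the lists of partners and the tests were chosen with earlier results of these data known. A further variant gene and a gene with a similar profile are not reported here.

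Tests used edgeR 4.0.16 (R 4.3.3) with TMM, its expression filter, the quasi-likelihood test and the matched pair as a block, at an adjusted p under 0.05 over all genes kept. The SE is the log2 fold change over the root of its F statistic and can be smaller than the spread between pairs. Normalized counts were divided by DESeq2 1.42.0 size factors. TPM values were computed from counts and exonic lengths. Log2 ratios of 2 libraries carry exact 95% Clopper-Pearson intervals, for counting error alone, as if reads were independent molecules. The tests were run on simulated counts in which the changed genes all had 1 fixed fold change, larger than that of most variants. Smaller changes and effects that vary between pairs were not simulated, so these runs do not bear on such calls. From each list, the 2 genes raised and the 2 lowered most with CPT, with at least 20 reads on average, were named. Promoter motifs were searched on both strands of 250 bases. The alternatives were RLE and total-count scaling, other read filters, DESeq2, no pair block, leaving out each pair, all 6 pairs for TNFα and, added after seeing the data, leaving out libraries under 10000000 reads. Sums, ratios and plots were made in Python 3.11.15 with pandas 2.3.3, numpy 2.4.6, matplotlib 3.10.9 and scipy 1.17.1, and edgeR ran with limma 3.58.1.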

Additional observations from a re-analysis of the deposited data

Results flagged for a closer look

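The log2 ratio of *H2AFZ* with ICRF193 against no inhibitor was above 0 in both WT pairs (0.06 and 0.002) and below 0 in both pairs of clone 32 (-0.04 and -0.03). The means differed by -0.0672 (clone 32 minus WT cells), and this difference was not tested. *H2AFZ* did not pass the test of ICRF193 over all 4 pairs (edgeR, log2 fold change 0.00083 ± 0.028, adjusted p 0.996).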

How the results depend on the processing

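The CPT calls of *H2AFX*, *H2AFZ*, *H2AFY*, *H2AFJ* and *CENPA* kept their direction and stayed past the threshold under all 11 alternatives. The log2 fold changes were 1.21 to 1.45 for *H2AFJ*, -0.72 to -0.61 for *CENPA* and -0.31 to -0.26 for *H2AFX*. For CPT, leaving out the shallow libraries is the same fit as leaving out the pair of clone 32 at 1 h TNFα. That fit is thus counted more than once among the 11. With TNFα in WT cells, all 12 libraries as 6 pairs gave -0.053 for *H2AFX* (adjusted p 0.907) and -0.00058 for *H2AFZ* (adjusted p 0.999). Leaving out 1 pair gave -0.116 to 0.028 for *H1FX* with ICRF193, and -0.173 to 0.033 with TNFα. Without libraries under 10000000 reads, *H2AFX* was 0.10 in clone 32 against WT cells (adjusted p 0.604), and the CPT interactions were 0.093 for *H2AFV* with cell line, and -0.10 each for *H2AFZ* and *H3F3B* with TNFα, none of them called. The number of variants called in clone 32 was 4, against 3 with DESeq2 (*H2AFV* lost, adjusted p 0.117), 3 with total-count scaling (*H2AFZ* lost, adjusted p 0.0582), 0 without the pair block, 0 without the shallow libraries and 2 to 4 when 1 pair was left out. Without a filter *H2AFJ* was called (adjusted p 0.046) and *H2AFV* was not (adjusted p 0.0826). Of the 13 alternatives, *H2AFV* passed in 4, *H2AFZ* in 6, and *H2AFY* and *H1FX* in 11 each. The number called was 0 to 1 when 1 pair was left out, both for ICRF193 and for TNFα. It was 1 for ICRF193 without the shallow libraries, where only WT pairs remained.

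Counts over all genes moved more. For ICRF193, 296 calls became 84 with DESeq2, 3 without the pair block and 148 to 322 without 1 pair. For TNFα in WT cells, 88 became 22, 0 (97 at an unadjusted p under 0.05) and 60 to 372, the last without the CPT pair, and 26 with all 6 pairs. For clone 32, 4408 became 2043 without the block and 521 without the shallow libraries. The CPT by cell line interaction gave 631 calls, 1096 without a filter, 146 with DESeq2 and 370 without the block, and that with TNFα gave 1, 21 without a filter and 14 without the shallow libraries. The causes were not tested. Shares per exonic length differed from those per read, with means of 8.87%, 58.4% and 9.06% for H2A without inhibitor, with CPT and with ICRF193 and 5.13%, 50.7% and 5.36% for H3. Of 320 single ratios under TMM or total-count scaling, 19 moved beyond their counting interval and none changed direction while that interval excluded 0. No paired analysis by replicate number was possible because the labels give none, and the ratio of *H3F3B* to *H3F3A* was not run. Depth limits *H2AFJ* and *CENPA* most, with as few as 68 and 148 reads.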
